A study of Mus musculus with 12 samples.

Results

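The CXC and CX3C chemokines described here are 8 ligand genes, Cxcl1, Cxcl2, Cxcl5, Cxcl12, Cxcl13, Cxcl14, Cxcl16 and Cx3cl1, taken by symbol out of 27933 genes counted in mouse thoracic aorta. Of the 8, 7 passed the filter on low counts and entered the edgeR fit, and Cxcl5 did not. The symbols were chosen with the values of these libraries in view, so the differences between the groups are given as a description of these libraries. RNA was measured in 4 groups of 3 C57BL/6J libraries. They are alpha7-nAChR KO mice exposed to nicotine vapor, KO mice in room air, WT mice exposed to nicotine vapor and WT mice in room air. Alpha7-nAChR, encoded by Chrna7, is an acetylcholine receptor that nicotine also opens. In all groups the exposure began at 5 months of age and lasted 12 weeks, and the aortas, cleaned of fat, came from mice of 8 months. Each library carries its group's name and its label's number: KO nicotine 3, 4 and 5, KO air 1, 2 and 7, WT nicotine 6, 11 and 12, and WT air 8, 9 and 10. The labels do not say that each library is a separate mouse, so p-values measure the spread between libraries, which may in part be technical.

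Library totals ran between 10240031 and 12628323 counts. Chrna7 gave 25, 8 and 21 counts in the KO nicotine libraries, 26, 18 and 28 counts in KO air, 9, 18 and 26 counts in WT nicotine, and 22, 35 and 37 in WT air. The groups overlapped, and since the deleted part of Chrna7 is not stated, a count over the whole gene does not check the genotype. Smooth muscle markers, the genes that define the aortic wall, summed to between 22690 and 45570 CPM (read counts over the library total, scaled by edgeR's TMM factors) in every library. KO nicotine 3 and KO air 7 stood apart in mesothelial markers, with sums of 40.5 and 75.8 CPM against 2.66 to 12.8 CPM in the other 10 libraries. KO nicotine 3 also had the highest sum of 4 hepatocyte markers, 2307 CPM, against 19.4 to 429.5 CPM elsewhere. Its sum of 5 skeletal muscle markers was the highest too, 157.9 CPM against 7.45 to 39.2 CPM elsewhere. Adipocyte markers, 7 genes, summed to between 865 and 6164 CPM over the libraries. In bulk tissue, fewer cells of a type and less RNA per cell cannot be told apart.

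Chemokines are small secreted or membrane-tethered proteins that direct leukocytes through receptors on those cells. The CXC ligands Cxcl1, Cxcl2 and Cxcl5 carry the ELR motif and draw neutrophils through Cxcr2, and their genes are induced by NF-kappaB in vascular and myeloid cells. Cxcl12 and Cxcl13 are mostly homeostatic, Cxcl12 holding Cxcr4-bearing cells in their niches and Cxcl13 drawing B cells through Cxcr5. Cxcl16 and Cx3cl1 are made as membrane proteins that tether Cxcr6- and Cx3cr1-bearing leukocytes and are shed by metalloproteases.

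Cxcl1 and Cxcl2 are the members whose WT nicotine libraries all lay above the WT air libraries. Among the protein-coding genes that RefSeq lists on chromosome 5, they are next to each other. Their promoters are shown because the longest stretch they share holds NF-kappaB letters. The windows are the 250 bases before the start of each gene, 5′ to 3′, from RefSeq (GRCm38.p6, plus strand), at chr5:90890995-90891244 for Cxcl1 and chr5:90903649-90903898 for Cxcl2. Capitals mark GGGAATTTCC, an NF-kappaB motif, and ATAAAAGG, a TATA-like motif.
Cxcl1: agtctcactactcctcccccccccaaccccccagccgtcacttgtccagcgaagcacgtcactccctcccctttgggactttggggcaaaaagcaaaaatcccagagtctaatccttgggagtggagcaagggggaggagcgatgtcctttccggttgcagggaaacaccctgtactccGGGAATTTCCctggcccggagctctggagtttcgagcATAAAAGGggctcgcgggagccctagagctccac
Cxcl2: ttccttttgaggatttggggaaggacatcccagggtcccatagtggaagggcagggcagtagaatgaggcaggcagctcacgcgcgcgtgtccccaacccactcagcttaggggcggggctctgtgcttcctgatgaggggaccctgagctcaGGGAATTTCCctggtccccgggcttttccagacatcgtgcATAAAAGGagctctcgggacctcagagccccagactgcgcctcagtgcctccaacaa
Both motifs were taken from the 2 longest stretches that the windows share, were then searched on both strands, and do not overlap. GGGAATTTCC begins 71 bases before the start of Cxcl1 and 97 bases before that of Cxcl2, and 28 of 32851 RefSeq promoter windows of the same length hold it (0.0852%). ATAAAAGG begins 34 and 57 bases before the starts and is in 507 windows (1.54%). The longest shared stretch is 14 bases, GGGAATTTCCCTGG, which contains the NF-kappaB motif. Neither set of letters is in the windows of Cxcl12, Cxcl13, Cxcl14 and Cx3cl1. Only these exact letters were searched, so other forms of either motif may be present in those windows. A match describes the letters and is no evidence of binding. The table used gave no window for Cxcl5 and Cxcl16. The counts were made on another build, mm9.

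Levels can be compared between genes only per length. On the scale of CPM per kb of merged exon (GENCODE annotation of GRCm38), Cxcl12 was the most abundant member in all 4 groups, with 21.4 ± 1.69 in KO nicotine, 22.3 ± 3.57 in KO air, 18.8 ± 2.81 in WT nicotine and 17.5 ± 0.999 in WT air (SD, n = 3 each). Cx3cl1 had group means between 4.88 and 6.02 CPM per kb, and Cxcl16 between 2.48 and 3.28. Cxcl1 had a mean of 1.69 CPM per kb in KO nicotine, 1.55 in KO air, 3.63 in WT nicotine and 0.894 in WT air. Cxcl13 lay between 1.08 and 5.00 CPM per kb, the highest being WT air with an SD of 7.33, Cxcl14 between 0.669 and 2.31, and Cxcl2 between 0.0786 and 0.85. Cxcl5 did not pass 0.223 CPM per kb in any group mean.

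**Figure D1:**
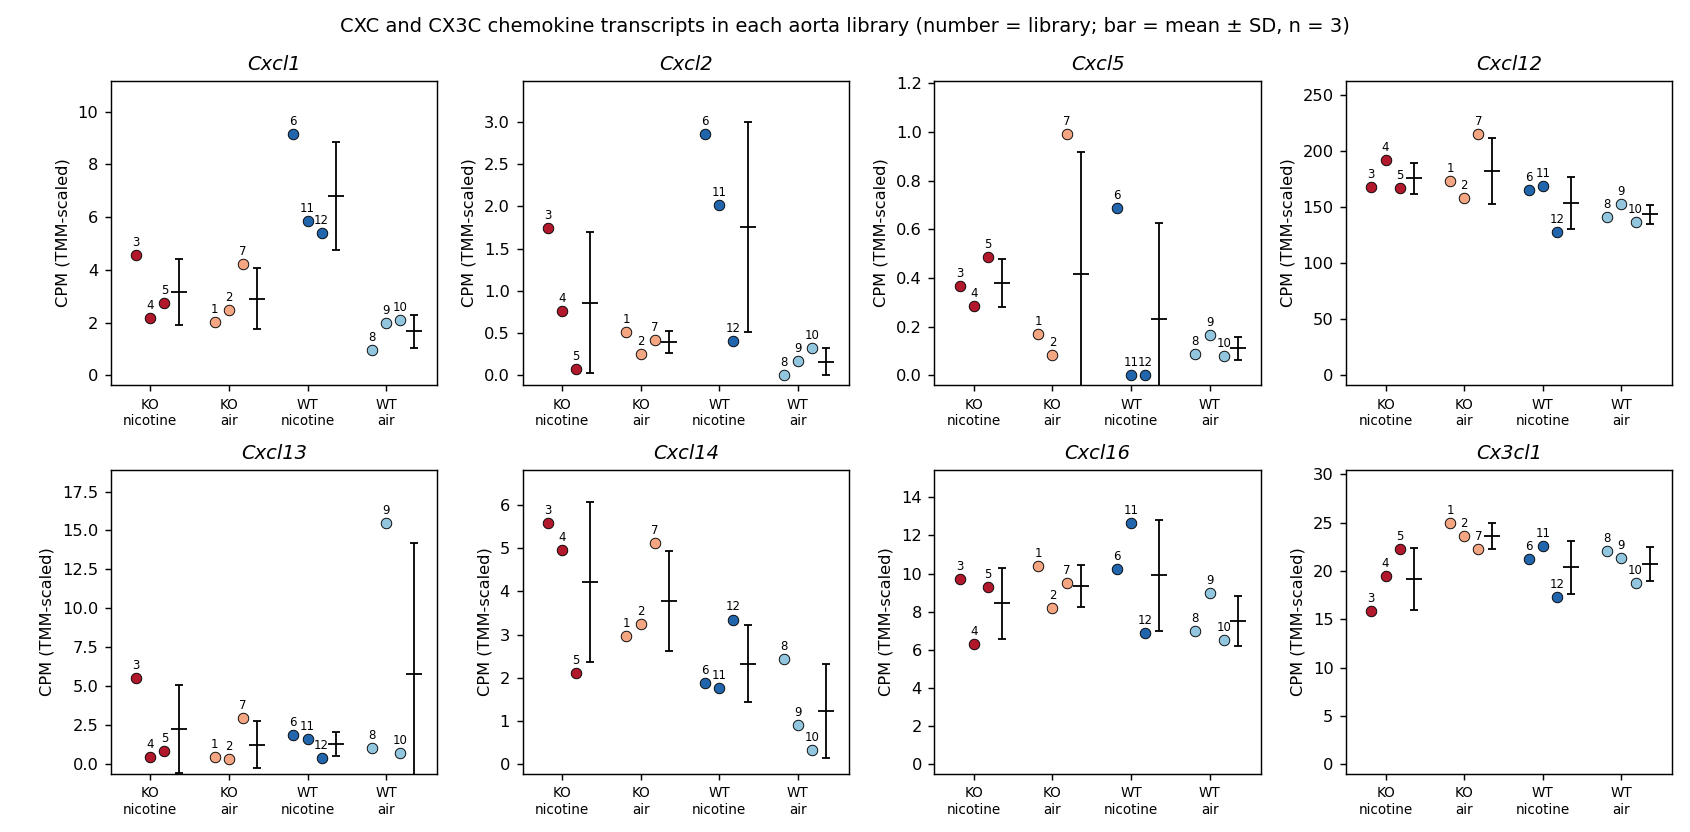
TMM-scaled CPM (y axis) of the 8 members in the 12 libraries, grouped on the x axis as KO nicotine, KO air, WT nicotine and WT air; points are libraries with their label number and bars are mean ± SD (n = 3), cut at the lower edge of the panel where they would pass below 0. For Cxcl1 the WT nicotine libraries, at 5.39 to 9.15 CPM, lie above every other library, while Cxcl13 is highest in a single WT air library, at 15.5 CPM.

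Cxcl1, a neutrophil attractant of endothelial, stromal and myeloid cells, was highest in WT nicotine. It measured 4.58, 2.19 and 2.75 CPM in KO nicotine 3, 4 and 5, and 2.04, 2.48 and 4.21 CPM in KO air 1, 2 and 7. It measured 9.15, 5.87 and 5.39 CPM in WT nicotine 6, 11 and 12, against 0.957, 1.98 and 2.10 CPM in WT air 8, 9 and 10. These rest on 66 to 93 reads in each WT nicotine library and 11 to 26 in each WT air library. All 3 WT nicotine libraries lay above all 9 others, an order whose share among all genes was not counted. The 2 KO groups overlapped with each other. KO air overlapped with WT air, whereas all KO nicotine libraries lay above all WT air libraries, the closest pair at 2.193 and 2.097 CPM. The highest KO libraries were KO nicotine 3 and KO air 7.

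Nicotine against air in WT gave a log2 fold change of 2.01 ± 0.42 (SE) for Cxcl1, which is 4.02-fold (edgeR adjusted p = 0.194 over 14621 genes). It thus missed the threshold of 0.05 on the adjusted p. The same contrast in KO gave 0.12 ± 0.41 (edgeR adjusted p = 0.967), and its sign turned when KO nicotine 3 was left out (-0.22) or KO air 1 (-0.08), with 0.49 without KO air 7. The interaction, the nicotine difference in KO minus that in WT, was -1.88 ± 0.58 (edgeR adjusted p = 0.999). Without both KO nicotine 3 and KO air 7, a choice made after seeing the data, the interaction was -1.89 and the WT difference 2.02. Between the genotypes in nicotine, Cxcl1 differed by -1.09 ± 0.40 on the log2 scale (edgeR adjusted p = 0.48), with no overlap of the libraries, and in air by 0.79 ± 0.42 (adjusted p = 0.994). The contrasts share groups and are not independent of each other.

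Another count model placed Cxcl1 past the threshold. DESeq2 on the same counts gave 2.02 ± 0.43 with an adjusted p of 0.00229 in WT, beside 0.693% of the genes it tested that were called. The authors' deposited table for WT lists a log2 fold change of 2.01, a standard error of 0.422 and an adjusted p of 0.00149 for Cxcl1, and it calls 0.809% of its genes. The authors' deposited table for KO lists 0.12 with an adjusted p of 0.997, and calls 0.0407% of its genes. The fold changes from the 3 sources differ by less than their standard errors, whereas the call differs between edgeR and the other 2.

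Cxcl2, the neighbour of Cxcl1 and a neutrophil attractant made mainly by activated myeloid cells, was near the lower limit of detection. It had 19, 8 and 1 reads in KO nicotine 3, 4 and 5, and 6, 3 and 5 reads in KO air 1, 2 and 7. It had 29, 24 and 5 reads in WT nicotine 6, 11 and 12, against 0, 2 and 4 reads in WT air 8, 9 and 10. WT nicotine 12, with 5 counts or 0.408 CPM, exceeded WT air 10, with 4 counts or 0.323 CPM, by 1 read, so the lack of overlap between the WT groups is narrow. A count of 3, the floor used here, is worth 0.242 to 0.295 CPM in these libraries, and such floors cover counting error only. The log2 fold change of nicotine against air was 1.09 ± 0.97 in KO (edgeR adjusted p = 0.881) and 3.32 ± 1.05 in WT (adjusted p = 0.343). The KO value rests on KO nicotine 3, since it was 0.06 without that library. The interaction was -2.22 ± 1.45 (edgeR adjusted p = 0.999). The authors' deposited table for WT lists 3.41 with an adjusted p of 0.084, and DESeq2 gave an adjusted p of 0.112. Cxcl2 passed the filter through the libraries in which it was high.

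Cxcl5, the third ELR ligand, which is made largely by epithelial cells, was barely detected. It had 4, 3 and 6 reads in KO nicotine 3, 4 and 5, and 2, 1 and 12 reads in KO air 1, 2 and 7. It had 7, 0 and 0 reads in WT nicotine 6, 11 and 12, against 1, 2 and 1 reads in WT air 8, 9 and 10. The nicotine and air libraries overlapped in both genotypes, and the genotypes overlapped in each exposure. KO air 7 held the highest count. Cxcl5 did not enter the filtered edgeR fit, and without the filter nicotine against air was -0.13 ± 1.20 in KO and 0.92 ± 1.38 in WT on the log2 scale (edgeR adjusted p = 1 and 0.919).

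Cxcl12, the ligand of Cxcr4 and of the scavenger Ackr3, differed little with nicotine. It measured 167.5, 191 and 167 CPM in KO nicotine 3, 4 and 5, and 173, 158 and 215 CPM in KO air 1, 2 and 7. It measured 165, 169 and 127 CPM in WT nicotine 6, 11 and 12, against 141, 152 and 137 CPM in WT air 8, 9 and 10. The nicotine and air libraries overlapped in both genotypes, whereas all 3 KO air libraries lay above all 3 WT air libraries. The nicotine difference was -0.06 ± 0.14 in KO and 0.10 ± 0.14 in WT on the log2 scale (edgeR adjusted p = 0.954 and 0.847). KO against WT in air was 0.35 ± 0.14 (edgeR adjusted p = 0.994), and 0.21 without KO air 7. In nicotine, KO against WT was 0.19 ± 0.14 with overlapping libraries (edgeR adjusted p = 0.793).

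Cxcl13, the B cell attractant of lymphoid follicles and serosal fat, was set by single libraries. It measured 5.50, 0.477 and 0.809 CPM in KO nicotine 3, 4 and 5, and 0.425, 0.342 and 2.97 CPM in KO air 1, 2 and 7. It measured 1.87, 1.59 and 0.408 CPM in WT nicotine 6, 11 and 12, against 1.04, 15.5 and 0.726 CPM in WT air 8, 9 and 10. In each of the KO nicotine, KO air and WT air groups 1 library stood above the other 2, and within KO these were the libraries with the high mesothelial sums. WT air 9 had 188 of its reads on Cxcl13, and its mesothelial sum of 7.58 CPM was not high.
The log2 fold change of nicotine against air was 0.84 ± 1.37 in KO, and -0.92 without KO nicotine 3. In WT it was -2.16 ± 1.36, and 0.53 without WT air 9 (edgeR adjusted p = 0.931 in KO and 0.64 in WT). No direction can be given for Cxcl13. The 6 B cell and follicle markers, all tested and none at 0 in any library, summed to 14.2 to 22.8 CPM in KO nicotine, 24.6 to 40.4 in KO air, 10.2 to 38.6 in WT nicotine and 12.4 to 31.5 in WT air. WT air 9, with 19.8 CPM, lay within these ranges, and the part of these markers in the Cxcl13 levels was not tested.

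Cxcl14, a ligand of epithelial, stromal and adipose tissue, was higher in KO than in WT air. It measured 5.59, 4.96 and 2.10 CPM in KO nicotine 3, 4 and 5, and 2.98, 3.25 and 5.12 CPM in KO air 1, 2 and 7. It measured 1.87, 1.76 and 3.35 CPM in WT nicotine 6, 11 and 12, against 2.44, 0.906 and 0.323 CPM in WT air 8, 9 and 10. The WT air values rest on 28, 11 and 4 reads. All KO air libraries lay above all WT air libraries, and in nicotine the genotypes overlapped. KO against WT in air was 1.63 ± 0.59 on the log2 scale (edgeR adjusted p = 0.994), and 1.35 without KO nicotine 3 and KO air 7. It was 1.17 without WT air 10 and 2.62 without WT air 8. In nicotine it was 0.85 ± 0.56 (edgeR adjusted p = 0.764). Nicotine against air gave 0.15 ± 0.55 in KO and 0.94 ± 0.60 in WT (edgeR adjusted p = 0.969 and 0.636), and the WT value moved to 1.94 without WT air 8 and 0.49 without WT air 10. The 6 mesothelial markers were all above 0 in KO against WT in air, with a median log2 fold change of 2.64 and sums of 7.86 to 75.8 CPM in KO air and 2.66 to 7.58 CPM in WT air. The 3 keratinocyte markers summed to 1.45 to 4.38 CPM in KO air and 0.824 to 1.83 CPM in WT air, with overlap. The highest was KO air 7. Both that were tested had a log2 fold change above 0 (median 2.07), but Krt14 had only 63 reads over all libraries and was at 0 in 4. The 7 adipocyte markers, all above 0 (median 0.32), summed to 2113 to 4468 CPM in KO air and 865 to 4085 CPM in WT air. Of all genes, 50.2% were above 0 for KO against WT in air (median 0.00131). The part of these markers in the Cxcl14 difference was not tested.

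Cxcl16, the membrane-bound ligand of Cxcr6 and a scavenger of oxidised lipoprotein, overlapped between nicotine and air in both genotypes. It measured 9.71, 6.29 and 9.31 CPM in KO nicotine 3, 4 and 5, and 10.4, 8.20 and 9.49 CPM in KO air 1, 2 and 7. It measured 10.2, 12.7 and 6.86 CPM in WT nicotine 6, 11 and 12, against 6.96, 8.98 and 6.53 CPM in WT air 8, 9 and 10. WT nicotine 6 and 11 exceeded every WT air library and WT nicotine 12 did not. The log2 fold change of nicotine against air was -0.15 ± 0.25 in KO and 0.40 ± 0.26 in WT (edgeR adjusted p = 0.935 and 0.635).

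Cx3cl1 or fractalkine, which endothelial and smooth muscle cells display to Cx3cr1-bearing monocytes, differed little between the groups. It measured 15.8, 19.5 and 22.3 CPM in KO nicotine 3, 4 and 5, and 24.99, 23.7 and 22.3 CPM in KO air 1, 2 and 7. It measured 21.3, 22.6 and 17.3 CPM in WT nicotine 6, 11 and 12, against 22.0, 21.3 and 18.7 CPM in WT air 8, 9 and 10. All KO nicotine libraries lay below all KO air libraries, the closest pair at 22.26 and 22.29 CPM, and all KO air libraries lay above all WT air libraries. Nicotine against air was -0.30 ± 0.16 in KO (edgeR adjusted p = 0.878) and -0.02 ± 0.16 in WT (adjusted p = 0.976). KO against WT in air was 0.19 ± 0.16 (edgeR adjusted p = 0.994). The 8 endothelial markers, none at 0 in any group, summed to 1346 to 1598 CPM in KO nicotine, 1143 to 1451 in KO air, 1061 to 1721 in WT nicotine and 1157 to 1336 in WT air.

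Over the 7 tested members and 6 comparisons, 42 tests in all, edgeR called none at an adjusted p under 0.05, and the lowest adjusted p was that of Cxcl1 in WT. In nicotine against air in WT, edgeR called 0.0205% of all genes and none of the members, while 2 members, Cxcl1 and Cxcl2, had a positive difference with an unadjusted p under 0.05, beside 5.43% of all genes. Both members lay above WT air without overlap, as did 7.13% of all genes. Cxcl2 passed the filter through the libraries in which it was high, and its separation rests on 1 read. In KO, edgeR called 0% of all genes, and no member had an unadjusted p under 0.05 (4.58% of all genes). Cx3cl1 lay below KO air without overlap, as did 5.55% of all genes. The interaction called 0% of genes, and 1 member, Cxcl1, had a negative value with an unadjusted p under 0.05 (2.58% of all genes). The average over genotypes also called 0% of genes, with Cxcl1 and Cxcl2 positive and under an unadjusted 0.05 beside 5.62% of all genes, at 1.07 ± 0.29 and 2.21 ± 0.72 on the log2 scale.
KO against WT in air called 0% of genes, with Cxcl12 and Cxcl14 positive and under an unadjusted 0.05 beside 2.24% of all genes. Those 2 and Cx3cl1 lay above WT without overlap, beside 5.75% of all genes. KO against WT in nicotine called 0.00684% of genes, with Cxcl1 alone under an unadjusted 0.05, negative, beside 4.06% of all genes, and below WT without overlap beside 5.59%. DESeq2 called Cxcl1 in WT and no member in the other 5 comparisons, where it called 0% of its genes for nicotine in KO, 0.0171% for the interaction, 0.728% for the average, 0.0783% for KO against WT in air and 0.534% for KO against WT in nicotine. Of the 7 members, 4 had a log2 fold change above 0 for nicotine in KO (median 0.12) and 5 in WT (median 0.40), against 51.5% of all genes (median 0.00954) in KO and 49.4% (median -0.00466) in WT.

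**Figure D2:**
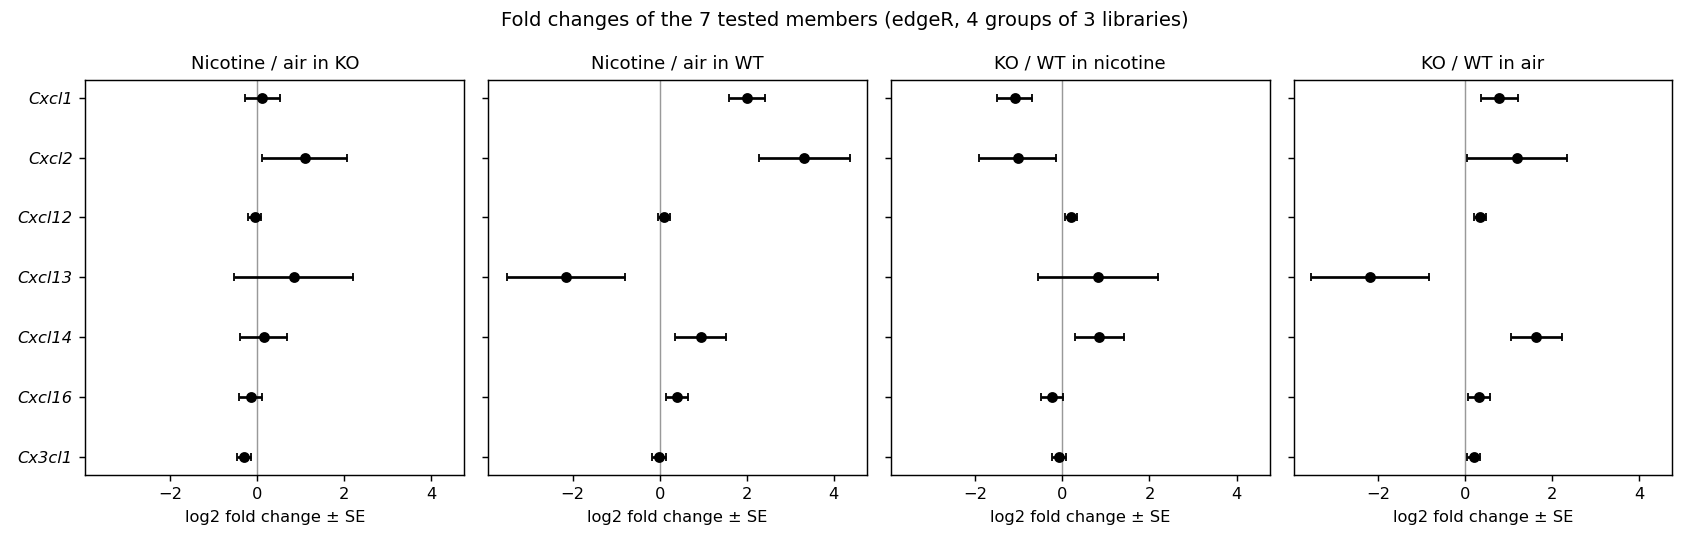
Log2 fold change ± SE (x axis, edgeR) of the 7 tested members (y axis) for nicotine over air in KO, nicotine over air in WT, KO over WT in nicotine and KO over WT in air. Cxcl1 and Cxcl2 lie farthest to the right in WT, at 2.01 and 3.32, and Cxcl13 has the widest bars. Cxcl2 passed the filter on low counts through the libraries in which it was high.

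A list of 9 chemokine receptors was used, and 7 passed the filter on low counts. With nicotine in KO, 2 of the 7 had a log2 fold change above 0 (median -0.13), and in WT 6 of 7 (median 0.63). None was called by edgeR in either genotype, and Cxcr2, Cxcr4 and Ackr1 had an unadjusted p under 0.05 in WT, beside 5.43% of all genes higher at that level.
Cxcr2, the neutrophil receptor of Cxcl1 and Cxcl2, measured 0.183, 0.763 and 0.324 CPM in KO nicotine 3, 4 and 5, and 0.765, 0.684 and 2.06 CPM in KO air 1, 2 and 7. It measured 6.20, 0.671 and 2.53 CPM in WT nicotine 6, 11 and 12, against 0.348, 0.824 and 0.645 CPM in WT air 8, 9 and 10. WT nicotine 6 and 12 were high and WT nicotine 11 lay within the range of WT air. The nicotine difference of Cxcr2 was -1.46 ± 0.83 in KO and 2.34 ± 0.77 in WT on the log2 scale (edgeR adjusted p = 0.878 and 0.362). Their interaction was -3.80 ± 1.13 (edgeR adjusted p = 0.999). Cxcr2 passed the filter through the libraries in which it was high, WT nicotine 6 and 12 and KO air 7.

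Cxcr4, the receptor of Cxcl12, was high in WT nicotine 6 and 11, at 12.9 and 8.80 CPM, while WT nicotine 12, at 1.72 CPM, lay within the 1.13 to 1.98 CPM of WT air. Its nicotine difference was -0.13 ± 0.57 in KO and 2.24 ± 0.59 in WT (edgeR adjusted p = 0.974 and 0.27). Ackr1, a chemokine-binding receptor of venular endothelium and red cells, measured 1.57, 1.17 and 1.31 CPM in WT nicotine against 0.609, 0.742 and 0.0806 CPM in WT air, without overlap. Its difference was 0.64 ± 0.66 in KO and 1.49 ± 0.66 in WT (edgeR adjusted p = 0.889 and 0.497). Cxcr6, the receptor of Cxcl16, went the other way in WT, at 0.197, 0.503 and 0.572 CPM in WT nicotine against 1.13, 0.906 and 0.887 CPM in WT air (log2 fold change -1.16 ± 0.61, edgeR adjusted p = 0.557). These are 2 to 7 and 11 to 13 reads per library. For KO against WT in nicotine, Cxcr6 gave 1.68 ± 0.60 and Cxcr2 -2.86 ± 0.81 (edgeR adjusted p = 0.48 and 0.413). Cxcr6 was the only tested receptor above 0 in that comparison, where 52.3% of all genes were above 0. Cx3cr1, the receptor of Cx3cl1, gave -1.26 ± 0.59 in KO and 0.24 ± 0.60 in WT (edgeR adjusted p = 0.878 and 0.927). Cxcr5, the Cxcl13 receptor, gave -0.09 ± 0.42 in KO and 0.63 ± 0.41 in WT, and Ackr3 0.24 ± 0.27 in KO and 0.54 ± 0.27 in WT.

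Of 8 other CXC ligands listed, 4 were tested. Cxcl10, an interferon-induced attractant of T cells, had group means of 1.23 CPM in KO nicotine, 0.979 in KO air, 1.13 in WT nicotine and 0.507 in WT air, and its nicotine difference was 0.31 ± 0.80 in KO and 1.15 ± 0.85 in WT (edgeR adjusted p = 0.955 and 0.691). The platelet and megakaryocyte ligands Pf4 and Ppbp differed by 0.03 ± 0.33 and -0.48 ± 0.41 in KO and by 0.36 ± 0.33 and -0.38 ± 0.40 in WT. Cxcl3, another ELR ligand of the chromosome 5 cluster, gave 0 counts in KO nicotine, 3 in KO air, 5 in WT nicotine and 2 in WT air, over 3 libraries each. The sheddases Adam10 and Adam17, which release Cxcl16 and Cx3cl1, and Dpp4, which trims Cxcl12, had 1 of 3 log2 fold changes above 0 in KO and 3 of 3 in WT. Adam17 measured 53.1, 48.8 and 43.4 CPM in WT nicotine against 41.7, 38.4 and 35.5 CPM in WT air, without overlap (log2 fold change 0.33 ± 0.12, edgeR adjusted p = 0.404), and its difference in KO was 0.02 ± 0.11.

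Of 11 inducers and regulators of CXC ligand transcripts, 8 were tested, and 2 had a log2 fold change above 0 with nicotine in KO (median -0.23) and 8 in WT (median 0.63). edgeR called none in either genotype, and 4 in WT (Il1b, Il6, Nfkbia and Nfkbiz) were higher with an unadjusted p under 0.05, beside 5.43% of all genes.
Il1b, the cytokine that induces Cxcl1, measured 2.57, 0.763 and 1.46 CPM in KO nicotine against 5.10, 2.65 and 3.80 CPM in KO air, without overlap. In WT it measured 11.8, 4.03 and 1.80 CPM with nicotine against 0.348, 1.81 and 1.21 CPM in air, and WT nicotine 12 lay just within the air range. The difference was -1.26 ± 0.69 in KO and 2.36 ± 0.71 in WT (edgeR adjusted p = 0.878 and 0.315), and the edgeR interaction was -3.62 ± 0.99 (adjusted p = 0.999).
Il6, itself an NF-kappaB target, had 0, 0 and 3 counts in KO nicotine 3, 4 and 5, and 1, 1 and 17 counts in KO air 1, 2 and 7. It had 42, 16 and 6 counts in WT nicotine 6, 11 and 12, against 4, 2 and 0 in WT air 8, 9 and 10. The WT groups did not overlap, and the difference was 3.47 ± 1.25 (edgeR adjusted p = 0.404). In KO it was -2.46 ± 1.48, with 17 of the 19 KO air reads in KO air 7. Il6 passed the filter through the libraries in which it was high, WT nicotine 6 and 11 and KO air 7. Nfkbia, which encodes the inhibitor of NF-kappaB and is induced by it, measured 59.6, 55.1 and 48.8 CPM in KO nicotine and 45.2, 49.1 and 53.8 CPM in KO air. It measured 95.4, 69.0 and 82.8 CPM in WT nicotine against 52.7, 62.9 and 65.5 CPM in WT air. WT nicotine lay above all 9 other libraries, an order whose share among all genes was not counted. In 7.13% of all genes the WT nicotine libraries lay above the WT air libraries. Nfkbia had a WT difference of 0.45 ± 0.14 (edgeR adjusted p = 0.321) and a KO difference of 0.14 ± 0.14. The subunit genes Nfkb1 and Rela differed by 0.07 ± 0.13 and 0.11 ± 0.13 in WT. For KO against WT in nicotine, all 8 tested inducers and regulators were below 0 (median -0.501), and edgeR called none. Of all genes, 52.3% were above 0 in that comparison (median 0.0142). Il1b, Il6, Rela and Nfkbia had an unadjusted edgeR p under 0.05, beside 4.06% of all genes lower. Rela was -0.406 ± 0.135 and Nfkbia -0.596 ± 0.1385 (edgeR adjusted p = 0.469 and 0.291). Both lay below WT without overlap, beside 5.59% of all genes.

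**Figure D3:**
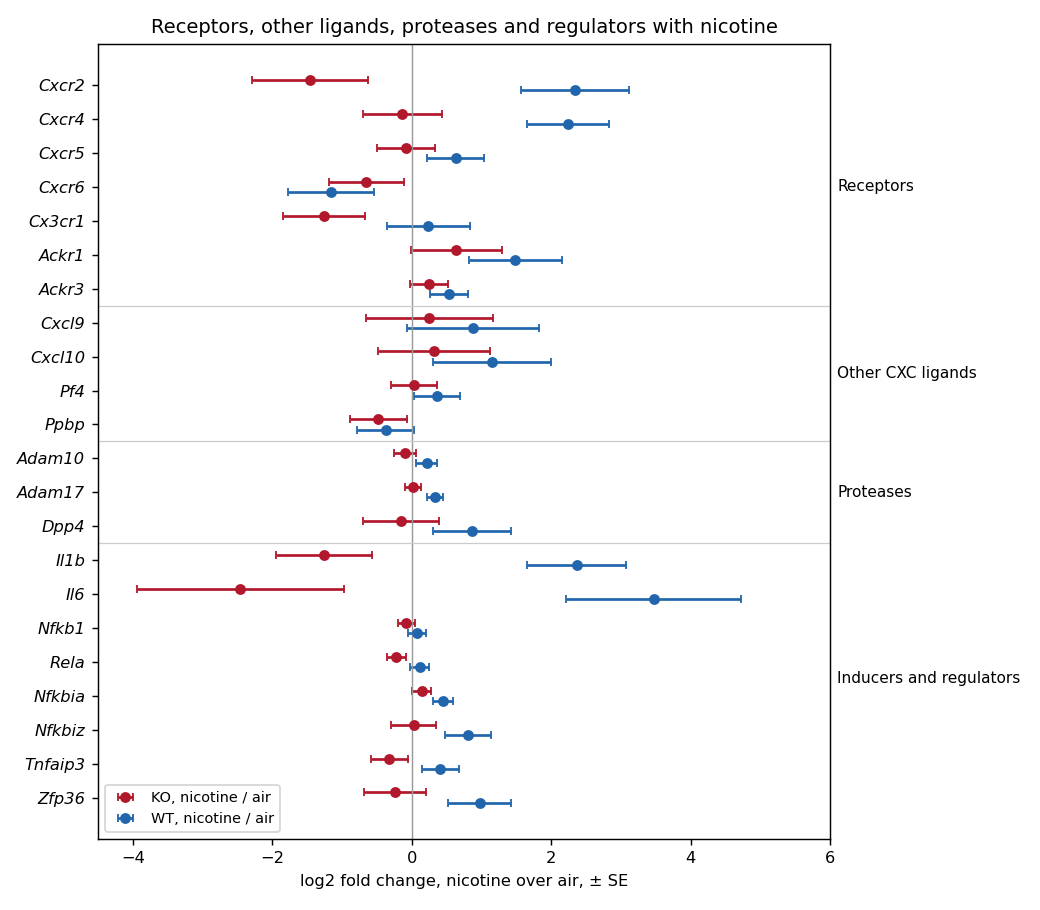
Log2 fold change of nicotine over air ± SE (x axis, edgeR) for the tested receptors, other CXC ligands, proteases, and inducers and regulators (y axis), KO in red above WT in blue. Cxcr2, Il1b and Il6 lie below 0 in KO, at -1.46, -1.26 and -2.46, and above 0 in WT, at 2.34, 2.36 and 3.47. Cxcr2 and Il6 passed the filter on low counts through the libraries in which they were high.

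By group mean, macrophage, neutrophil and fibroblast markers and immediate early genes were, like Cxcl1 and Cxcl2, highest in WT nicotine. B cell and T cell markers were highest in KO air. The 9 macrophage markers, all tested, summed to 316.8 to 604.8 CPM in KO nicotine, 282 to 453 in KO air, 437 to 605 in WT nicotine and 283 to 297 in WT air. In WT all 9 had a log2 fold change above 0 with nicotine (median 0.76), and in KO 8 of 9 (median 0.25). The libraries with the highest Cxcl1 in each of the KO nicotine, KO air and WT nicotine groups, KO nicotine 3, KO air 7 and WT nicotine 6, were also those with the highest macrophage sum of their group. In WT air the highest Cxcl1 was that of library 10, which had the lowest macrophage sum. The 9 neutrophil markers, of which 7 were tested and Cxcr2 is 1, summed to 12.7 to 18.5 CPM in KO nicotine and 15.2 to 18.7 in KO air. In WT they summed to 22.4 to 89.7 CPM with nicotine and 10.97 to 36.8 in air. With nicotine, 7 of the 7 tested had a log2 fold change above 0 in WT (median 1.76) and 3 of 7 in KO (median -0.06). By library, the sums were 89.7, 22.4 and 34.5 CPM in WT nicotine 6, 11 and 12. In WT air 8, 9 and 10 they were 10.97, 36.8 and 11.05 CPM. Ly6g, a defining neutrophil gene, had only 7 reads over all libraries. It was at 0 in 9 libraries, the 6 KO libraries among them, so its zeros do not separate the genotypes.
The 8 immediate early genes, which respond to handling of tissue, summed to 776 to 2009 CPM in KO nicotine, 946 to 2157 in KO air, 1148 to 2845 in WT nicotine and 449.7 to 1950 in WT air. With nicotine, 8 of 8 had a log2 fold change above 0 in WT (median 0.87) and 3 of 8 in KO (median -0.20). Their sums were 2529, 2845 and 1148 CPM in WT nicotine 6, 11 and 12. In WT air 8, 9 and 10 they were 449.7, 729.5 and 1950 CPM. In the same order, Cxcl1 was 9.15, 5.87 and 5.39 CPM in WT nicotine and 0.957, 1.98 and 2.10 CPM in WT air. Cxcl2 was 2.85, 2.01 and 0.408 CPM in WT nicotine and 0, 0.165 and 0.323 CPM in WT air. Markers of other cells also differed between the WT groups. The 6 mesothelial markers, all above 0 with nicotine in WT (median 0.83) and 2 of 6 in KO, summed to 9.39 to 10.7 CPM in WT nicotine and 2.66 to 7.58 CPM in WT air, without overlap. The 8 fibroblast markers had 0 of 8 log2 fold changes above 0 in KO (median -0.10) and 8 of 8 in WT (median 0.26). Their sums were 4324 to 6066 CPM in KO nicotine and 4305 to 6527 CPM in KO air. In WT these sums were 5861 to 7445 CPM with nicotine and 4696 to 6044 CPM in air. Of the 7 smooth muscle markers, 6 were below 0 in KO (median -0.33) and 6 in WT (median -0.47), with sums of 27800 to 32250 CPM in WT nicotine and 30500 to 45570 CPM in WT air. Adipocyte markers had 7 of 7 log2 fold changes above 0 in KO (median 0.545) and 6 of 7 in WT (median 0.573). Their sums overlapped, at 3150 to 3331 CPM in WT nicotine and 865 to 4085 CPM in WT air. The part of these cells and of handling in the Cxcl1 and Cxcl2 differences was not tested.

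**Figure D4:**
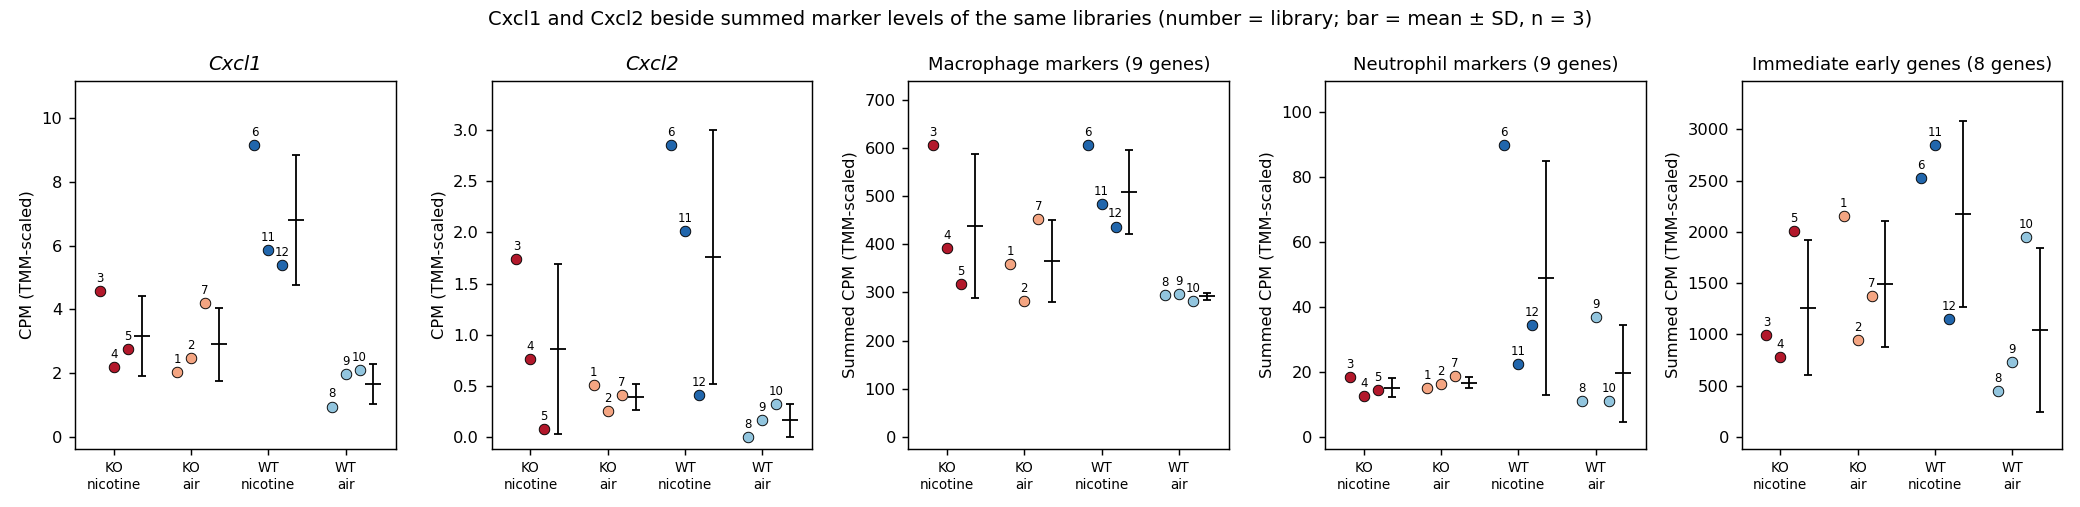
TMM-scaled CPM of Cxcl1 and Cxcl2 and the summed CPM (y axes) of 9 macrophage markers, 9 neutrophil markers and 8 immediate early genes in each library, grouped on the x axis as KO nicotine, KO air, WT nicotine and WT air; bars are mean ± SD (n = 3). Macrophage sums of WT nicotine, 437 to 605 CPM, do not overlap with WT air, 283 to 297 CPM, whereas neutrophil and immediate early sums do.

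For each tested member, the 3 genes with the most similar profile were taken by Pearson's r of log2 CPM over the 12 libraries, among 10509 or 10508 genes of 5 CPM or more. These are descriptions over libraries that share depth and tissue makeup, and the highest of so many values is high by selection. For Cxcl1 they were Sirpa (r = 0.888), Dab2 (0.88) and Slc11a1 (0.878), and within groups, after the group means were taken out, r was 0.617, 0.681 and 0.691. For Cxcl2 they were Ncf1 (r = 0.94), Slc11a1 (0.924) and Selplg (0.918), and within groups r was 0.898, 0.853 and 0.916. Slc11a1, which encodes a metal transporter of phagosomes, was the gene that both lists held. Cxcl12 was most like Ppp4c (r = 0.882), Cxcl14 most like Suv420h2 (0.911), Cxcl16 most like Prdm10 (0.889) and Cx3cl1 most like Xxylt1 (0.93). Cxcl13 was most like Rnmt (r = 0.858), with a Spearman's rho of 0.727.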

How the data were processed

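Per the submitters' processing notes, the authors counted reads with HTSeq against mm9; the sources used here name no aligner, annotation or version (not given in the sources used here). RNA came from RNeasy Plus extractions and SMART-Seq v4 libraries, per the labels. The deposited counts are whole, unscaled numbers for each symbol. The authors also deposited a table of nicotine against air per genotype. Per the file headers, it holds a mean signal of normalized counts, a log2 fold change with its standard error, a test score, and unadjusted and adjusted p-values; the program is not stated.

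The 8 members, the gene lists and the marker lists were chosen with earlier results of these data known. Of 27933 genes, 14621 passed filterByExpr (minimum count 10). Counts were scaled by TMM (factors 0.962 to 1.05) and fitted with edgeR 4.0.16, robust quasi-likelihood, on 4 group means, which left 8 residual degrees of freedom; the biological coefficient of variation was 0.233. Benjamini-Hochberg adjustment ran over all genes tested in each comparison, and an adjusted p under 0.05 was called. The contrasts were nicotine against air in each genotype, their difference, their average, and KO against WT in each exposure. CPM are TMM-scaled, and log2 CPM for profile likeness used a prior count of 2. Pathway genes are named where their unadjusted p for nicotine in WT or KO was under 0.05 or their role is defining. For the other contrasts they are not named in full. Likeness named 3 genes per member, leaving out predicted symbols. Tested on simulated counts for nicotine in WT (14377 genes), the fit recovered 48 of 99 2-fold and 81 of 100 4-fold changes, with 7 false calls. DESeq2 1.42.0, its size factors in edgeR, no filter on low counts and leaving out libraries were the alternatives. Chi-square values of library pairs, per degree of freedom, were 8.28 to 68.6, so none was counted as a repeat. Without a stated strand setting, overlapping genes cannot be told apart. Promoter windows came from RefSeq, GRCm38.p6.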

Additional observations from a re-analysis of the deposited data

How the results depend on the processing

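No paired analysis was possible because the groups share no replicate number. edgeR called 0 members in all 6 comparisons in each of the settings run, leave-one-out included. DESeq2 called 1, Cxcl1 in WT, where its log2 fold change was 2.02 (adjusted p = 0.00229). The WT differences of Cxcl1 and Cxcl2 ran from 1.76 to 2.21 and from 2.81 to 4.22 with each library left out in turn (edgeR adjusted p 0.109 to 0.582 and 0.172 to 0.878).

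With a library left out, 17 of 504 values turned their sign. For nicotine in KO, the ranges were -0.22 to 0.49 for Cxcl1, -0.15 to 0.0804 for Cxcl12, -0.92 to 2.52 for Cxcl13, -0.0971 to 0.48 for Cxcl14 and -0.25 to 0.0235 for Cxcl16. For nicotine in WT, they were -2.66 to 0.53 for Cxcl13 and -0.0877 to 0.0904 for Cx3cl1. Averaged over genotypes, they were -0.0235 to 0.0898 for Cxcl12 and -1.54 to 0.69 for Cxcl13. For KO against WT, they were -3.87 to 0.50 for Cxcl13 in air, -0.96 to 1.28 for Cxcl13 in nicotine and -0.21 to 0.0424 for Cx3cl1 in nicotine. Without KO nicotine 3 and KO air 7, a choice made after seeing the data, Cxcl12 for nicotine in KO was 0.11, and for KO against WT in nicotine Cx3cl1 was 0.0279 and Cxcl13 -0.97. The cause was not tested. Apart from DESeq2 for Cxcl1 in WT, the other settings kept direction and side of the threshold for every tested member, with those 3 exceptions; DESeq2 gave no p for Cxcl13.

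Groups of 3 limit the precision, and Cxcl2 and Cxcl5, with under 30 reads per library, are limited by depth. Depth also limits Cxcl14 in WT air, with 28, 11 and 4 reads, and Cxcl13, which fell to 4 reads in KO air 2.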
